A study of Mus musculus with 5 samples.

Results

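The nitric oxide and cGMP signaling genes examined here were *Nos3*, *Gucy1a1*, *Gucy1a2*, *Gucy1b1*, *Npr1*, *Npr3*, *Prkg1* and *Pde5a*. These 8 genes, of 32285 in the deposited count matrices, were listed by symbol for their role in the pathway, and all 8 were found. Endothelial nitric oxide synthase, encoded by *Nos3*, makes nitric oxide, a gas that diffuses into neighbouring cells and binds the heme of soluble guanylate cyclase. That enzyme is a heterodimer of an alpha subunit, *Gucy1a1* or *Gucy1a2*, and the beta subunit *Gucy1b1*, and it turns GTP into cGMP. Natriuretic peptides raise cGMP by another route, through the membrane guanylate cyclase *Npr1*, while *Npr3* is the clearance receptor that removes the peptides. cGMP activates the kinase encoded by *Prkg1*, which relaxes vascular smooth muscle, and the phosphodiesterase encoded by *Pde5a* breaks cGMP down. In brown fat this pathway is known for its roles in blood flow and in thermogenic gene expression.

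Nuclei were sorted from mouse interscapular brown adipose tissue (iBAT) and profiled by 10x Genomics 3′ single-nuclei RNA sequencing, which counts unique molecular identifiers (UMIs). One matrix, the 3-month matrix, pooled a WT library and a UCP1-STX4KO library from mice of 3 months. WT mice were littermates with Ucp1-Cre+/- or STX4 fl/fl alone, while UCP1-STX4KO mice had both, so that Cre under the *Ucp1* promoter was aimed at *Stx4a* in brown adipocytes. The other, the aging matrix, pooled libraries of C57BL/6J mice of 2, 12 and 24 months. Each condition was 1 library, how mice were divided among libraries is not given in the sources used here, and neither the labels nor the files say which barcode suffix is which condition. Libraries are therefore named by suffix, no genotype or age was compared, no p-value was computed, and each matrix counts as 1 sample.

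Nuclei were put into classes by fixed marker lists that hold none of the 8 genes, so the levels of the genes were not used to form the classes. Levels are UMIs of a gene per 1000000 UMIs of its class (CPM). The 3-month matrix held 20307 nuclei, of which 15957 were adipocyte, 344 endothelial, 376 pericyte, 527 stromal, 350 skeletal muscle, 214 macrophage, 125 T lymphocyte and 11 smooth muscle. The aging matrix held 27842 nuclei, of which 18222 were endothelial, 2435 pericyte, 1747 adipocyte, 949 smooth muscle, 853 Schwann, 645 stromal and 71 macrophage. The labels call all samples brown adipocytes, yet adipocyte nuclei were 78.6% of the 3-month matrix and 6.27% of the aging matrix, where 65.4% were endothelial. Further genes that the gates did not use were highest in their own class for 5 of 5 genes in adipocyte and endothelial nuclei of both matrices, for 4 of 5 and 3 of 5 in pericyte nuclei, and for 5 of 5 in smooth muscle nuclei of the aging matrix. Those for pericytes summed to 4876 CPM in pericyte and 4946 CPM in adipocyte nuclei of the 3-month matrix. Median depth by library was 5998 and 3284.5 UMIs in the 3-month matrix and 1247, 1635 and 1719.5 UMIs in the aging matrix. The aging library with suffix 1 supplied 1478 of the 2435 pericyte, 685 of the 949 smooth muscle and 743 of the 853 Schwann nuclei, and the 3-month library with suffix 2 supplied 341 of the 350 skeletal muscle nuclei. The libraries of a matrix shared 23 barcode sequences in the 3-month and 99 in the aging matrix, and no doublet caller was run.

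Square brackets hold 95% intervals, exact Poisson for a CPM and exact conditional binomial for a ratio of CPM. Both cover counting error only, not the spread between mice. Long and short genes were not compared with each other, since the values are not per length. On GRCm38 with GENCODE vM21, *Gucy1b1* (chromosome 3, 82032006 to 82074689) and *Gucy1a1* (82092427 to 82145789) are neighbours on the minus strand, 17.7 kb apart with 0 protein-coding genes between them. *Npr1* (90450591 to 90465866, minus strand) and *Pde5a* (122728947 to 122859374, plus strand) lie on the same chromosome. *Nos3* lies on chromosome 5 (24364810 to 24384474, plus strand), *Gucy1a2* on chromosome 9 (3532778 to 3894736, plus strand) and *Npr3* on chromosome 15 (11839896 to 11907287, minus strand). *Prkg1*, on chromosome 19 (30564489 to 31765033, minus strand), spans 1200 kb. Of the 19.7 kb of *Nos3*, 17423 bases overlap the antisense gene *Gm15587*, and 40094 bases of *Pde5a* overlap *4930447N08Rik* on the other strand. Whether strand and introns were counted is not given in the sources used here, so reads of such partners may not be separable.

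Promoter sequence was available for 7 of the 8 genes, in 9 windows of 300 bases (RefSeq, GRCm38.p6). The part upstream of the annotated start is shown for the cyclase subunits and *Prkg1*, whose levels were highest in mural nuclei, and for *Npr1*, which was highest in endothelial nuclei. Each is written 5′ to 3′ on the gene's strand. Capitals mark GC boxes (GGGCGG or its reverse complement CCGCCC) and CCAAT boxes (CCAAT or ATTGG).
Gucy1a1, chr3:82145790-82145900, minus strand: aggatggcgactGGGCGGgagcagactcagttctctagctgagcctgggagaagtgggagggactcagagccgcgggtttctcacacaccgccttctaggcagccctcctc
Gucy1b1, chr3:82074712-82074961, minus strand: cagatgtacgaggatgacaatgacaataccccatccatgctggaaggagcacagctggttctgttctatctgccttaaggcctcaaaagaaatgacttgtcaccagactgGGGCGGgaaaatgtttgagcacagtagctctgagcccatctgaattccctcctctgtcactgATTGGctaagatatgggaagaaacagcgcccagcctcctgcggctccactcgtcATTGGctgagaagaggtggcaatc
Gucy1a2, chr9:3532099-3532348, plus strand: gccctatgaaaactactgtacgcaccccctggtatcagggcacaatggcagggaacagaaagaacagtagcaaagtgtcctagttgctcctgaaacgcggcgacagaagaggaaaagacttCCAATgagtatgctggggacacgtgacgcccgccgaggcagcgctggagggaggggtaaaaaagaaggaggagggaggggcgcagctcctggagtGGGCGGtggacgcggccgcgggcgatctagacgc
Prkg1, chr19:31765034-31765283, minus strand: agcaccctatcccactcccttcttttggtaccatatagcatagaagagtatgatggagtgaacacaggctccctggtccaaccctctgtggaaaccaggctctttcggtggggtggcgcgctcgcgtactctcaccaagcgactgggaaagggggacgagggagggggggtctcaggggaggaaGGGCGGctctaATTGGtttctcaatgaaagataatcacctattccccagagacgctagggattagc
Npr1, chr3:90465867-90466116, minus strand: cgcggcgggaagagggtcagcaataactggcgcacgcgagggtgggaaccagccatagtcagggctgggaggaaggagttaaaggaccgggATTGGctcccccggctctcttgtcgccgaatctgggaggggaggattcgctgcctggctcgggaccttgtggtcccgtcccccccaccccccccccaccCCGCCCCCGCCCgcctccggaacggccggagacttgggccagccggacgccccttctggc
A GC box was in 7 of the 9 windows against 35.7% of 32851 windows of that length, and a CCAAT box in 5 of 9 against 37.4%. The CArG box, the element bound by serum response factor in smooth muscle genes, was in 0 of the 9 windows and in 1.63% of all windows. TATAAA or TTTATA was in 0 of 9 and in 13.6%, and the ETS core CCGGAA or TTCCGG was in 2 of 9 and in 14.9%. Both strands were searched. The pattern of the CArG box can include some of the other motifs, so the shares in all windows are not fully independent. Binding and promoter activity were not measured, so these matches only describe the letters in the windows.

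Among classes of at least 50 nuclei, *Nos3* and *Npr1* were highest in endothelial nuclei of both matrices, and the other 6 genes in mural nuclei, those of the pericytes and smooth muscle cells that wrap vessels. *Gucy1a2*, *Gucy1b1*, *Npr3* and *Prkg1* were highest in pericyte nuclei of both. *Gucy1a1* and *Pde5a* were highest in pericyte nuclei of the 3-month matrix, whose 11 smooth muscle nuclei were too few to rank, and in smooth muscle nuclei of the aging matrix. Against adipocyte nuclei, 5 of the 8 genes were at least 2-fold higher in pericyte nuclei in both matrices, where 15.1% of all genes tested were. Those genes were *Gucy1a1*, *Gucy1a2*, *Gucy1b1*, *Prkg1* and *Pde5a*, the genes that make, sense and degrade cGMP downstream of nitric oxide, called the response genes here. At the top of the order the interval of the first class did not overlap that of the second for any of the 8 genes, while for *Npr3* the endothelial and adipocyte intervals overlapped in both matrices. Lymphatic endothelial nuclei, 13 and 27 in the matrices, were too few to rank. They had *Nos3* at 140 CPM [60.3–275] in the aging matrix, on 8 UMIs, and at 25.7 CPM in the 3-month matrix, on 1 UMI. Their *Gucy1b1* level was 257 CPM in the 3-month and 157 CPM in the aging matrix, on 10 and 9 UMIs. For *Prkg1* it was 1879 and 872 CPM, on 73 and 50 UMIs. *Gucy1a1* and *Gucy1a2* had 2 to 6 UMIs in these nuclei, and *Pde5a* had 0 in both matrices.

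**Figure D1:**
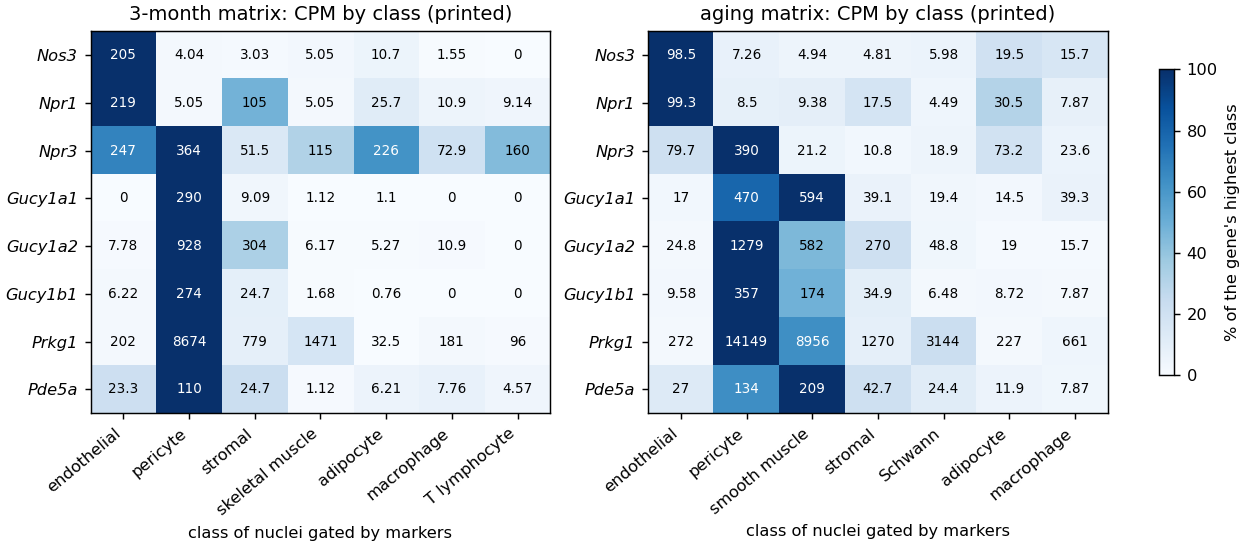
Heat map of the CPM of each gene (rows) in each class of at least 50 nuclei (columns), in the 3-month matrix (left) and the aging matrix (right), with the CPM printed and the shade giving the percent of the gene's highest class. *Nos3* and *Npr1* are darkest in endothelial nuclei, the cyclase subunits, *Prkg1* and *Pde5a* in pericyte or smooth muscle nuclei, and *Npr3* in pericyte nuclei.

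*Nos3* was higher in endothelial than in adipocyte, pericyte and stromal nuclei in 5 of 5 libraries. Its level in endothelial nuclei was 156 and 226 CPM with suffixes 1 and 2 of the 3-month matrix and 125, 104 and 88.7 CPM with suffixes 1, 2 and 3 of the aging matrix. In adipocyte nuclei of the same libraries it was 5.31, 24.0, 15.7, 28.1 and 7.44 CPM, so the ranges of the classes did not overlap. The endothelial level was 19.2-fold [15.9–23.0] that of adipocyte nuclei in the 3-month matrix and 5.05-fold [4.07–6.34] in the aging matrix (29.4, 9.43, 7.99, 3.71 and 11.9 by library), and 50.8-fold [19.4–189] and 13.6-fold [9.97–18.9] that of pericyte nuclei. At least 2-fold higher in endothelial than in adipocyte nuclei of both matrices were 3 of the 8 genes, *Nos3*, *Npr1* and *Pde5a*, where 14.8% of all genes tested were.

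Outside endothelial and adipocyte nuclei, *Nos3* had few UMIs. There were 9 in skeletal muscle, 4 in pericyte, 6 in stromal, 1 in macrophage and 0 in T lymphocyte nuclei of the 3-month matrix, where the first 4 values, from 5.05 down to 1.55 CPM, had overlapping intervals. The adipocyte level of 10.7 CPM [10.1–11.4] rested on 1106 UMIs, 83.3% of all *Nos3* UMIs in that matrix. There were 3.48 and 9.94 *Nos3* UMIs per UMI of *Kdr*, an endothelial receptor gene, in adipocyte nuclei of the 3-month libraries and 0.190 and 0.685 in their endothelial nuclei. In the aging libraries the adipocyte values were 0.857, 0.113 and 0.0485 and the endothelial values 0.251, 0.138 and 0.0934, so the adipocyte ratio was the higher one with suffix 1 and the lower one with suffixes 2 and 3. Beside this, *Kdr* itself was 18.3, 249 and 153 CPM in adipocyte nuclei of the aging libraries. The part of endothelial RNA in the adipocyte level of *Nos3* was not tested.

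*Npr1*, the receptor cyclase for atrial and brain natriuretic peptide, was likewise highest in endothelial nuclei. It stood at 135 and 255 CPM in endothelial nuclei of the 3-month libraries and at 120, 110 and 86.7 CPM in those of the aging libraries. Adipocyte nuclei had 29.2, 17.1, 29.3, 25.3 and 47.6 CPM, all below the endothelial values. The endothelial level was 8.54-fold [7.15–10.1] the adipocyte level in the 3-month matrix and 3.25-fold [2.74–3.90] in the aging matrix, and by library 4.63, 14.9, 4.09, 4.34 and 1.82-fold. Pericyte nuclei held 5.05 and 8.50 CPM. Against endothelial nuclei, *Nos3* and *Npr1* were the 2 of 8 genes at least 2-fold lower in pericyte nuclei of both matrices, where 10.5% of all genes tested were.

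Stromal nuclei, the fibroblast and progenitor class, had *Npr1* at 54.9 and 150 CPM in the 3-month libraries but at 15.8, 32.3 and 12.2 CPM in the aging libraries. The stromal level was 4.07-fold [3.51–4.69] that of adipocyte nuclei in the 3-month matrix and 0.572-fold [0.369–0.860] in the aging matrix. By library it was 1.88, 8.75, 0.539, 1.27 and 0.256-fold, so the aging library with suffix 2 went the way of the 3-month libraries, on 10 stromal UMIs. Stromal nuclei of the 3-month matrix held 207 *Npr1* UMIs beside 3 of *Kdr*.

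*Npr3*, the clearance receptor, varied widely between libraries. In pericyte nuclei it was 246 and 511 CPM in the 3-month libraries and 439, 82.9 and 525 CPM in the aging libraries. In adipocyte nuclei it was 79.0 and 588 CPM and then 40.8, 92.3 and 115 CPM. The 3-month library with suffix 2 thus had 7.45 times the adipocyte level of suffix 1, and the aging library with suffix 2 was the low one among pericyte nuclei.

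The pericyte level of *Npr3* was 1.61-fold [1.45–1.79] the adipocyte level in the 3-month matrix and 5.33-fold [4.73–6.01] in the aging matrix. By library the ratio ran from 0.868 to 10.8 and was above 1 in 3 of 5, so the direction against adipocytes did not hold in every library. Without suffix 1 the 3-month ratio was 0.868. Against endothelial nuclei the pericyte level was higher in 5 of 5 libraries, from 1.42-fold to 5.71-fold.

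The 3-month matrix showed *Npr3* in every class of at least 50 nuclei, from 51.5 CPM in stromal to 247 CPM in endothelial and 364 CPM in pericyte nuclei, and T lymphocyte nuclei had 160 CPM. In that matrix the 7 adipocyte marker genes together reached 1758 CPM in pericyte and 2470 CPM in endothelial nuclei, against 10234 CPM in adipocyte nuclei. Per UMI of *Ucp1*, the brown adipocyte uncoupling protein, *Npr3* had 0.0777 UMIs in adipocyte nuclei of suffix 1 and 0.705 in those of suffix 2. With suffix 1 it had 0.107 in stromal, 0.228 in endothelial and 0.692 in pericyte nuclei. With suffix 2 it had 0.408 in stromal, 0.349 in macrophage and 0.629 in skeletal muscle nuclei, where the skeletal muscle interval [0.524–0.753] overlapped that of adipocyte nuclei, and 0.810 in endothelial and 1.69 in pericyte nuclei. Only the pericyte interval [1.36–2.11] of suffix 2 lay above that of adipocyte nuclei [0.691–0.719] among these. In the aging libraries the ratio was 0.0364, 0.0533 and 0.210 in adipocyte, 1.33, 0.251 and 1.95 in endothelial, and 23.7, 0.536 and 19.1 in pericyte nuclei. The pericyte ratio was thus above the adipocyte and endothelial ratios in 5 of 5 libraries.

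**Figure D2:**
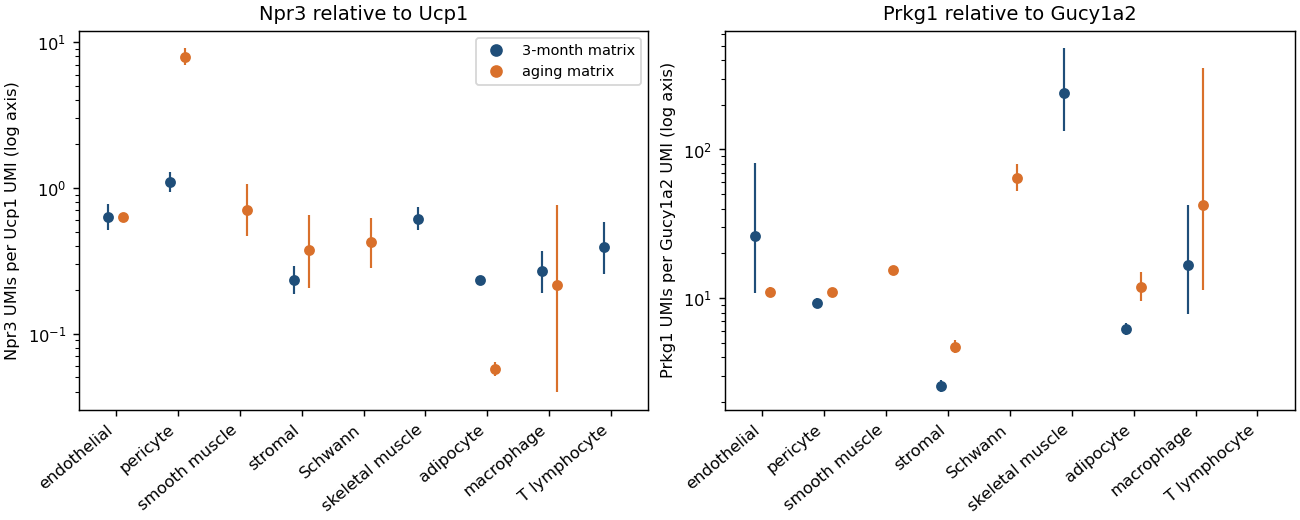
*Npr3* UMIs per *Ucp1* UMI (left) and *Prkg1* UMIs per *Gucy1a2* UMI (right) in each class, on log axes, for the 3-month matrix (blue) and the aging matrix (orange), with points for summed UMIs and bars for 95% counting intervals. Pericyte nuclei carried the most *Npr3* per *Ucp1* in both matrices (1.10 and 7.97), over libraries whose adipocyte ratios differ (0.0777 and 0.705 in the 3-month matrix), and *Prkg1* per *Gucy1a2* was 11.1 in pericyte, 11.0 in endothelial and 11.9 in adipocyte nuclei of the aging matrix but 64.4 in Schwann nuclei.

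The 3 subunits of soluble guanylate cyclase were highest in mural nuclei. *Gucy1b1*, the beta subunit that every such dimer needs, was 394 and 125 CPM in pericyte nuclei of the 3-month libraries and 403, 274 and 334 CPM in those of the aging libraries. Adipocyte nuclei had 0.789, 0.704, 11.5, 7.31 and 4.47 CPM. The lowest pericyte library was above the highest adipocyte library, and the ratio was 358-fold [278–466] in the 3-month and 41.0-fold [29.7–58.1] in the aging matrix, or 499, 177, 34.9, 37.4 and 74.9-fold by library.

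*Gucy1a1*, an alpha subunit, had 419 and 129 CPM in pericyte nuclei of the 3-month libraries and 529, 358 and 443 CPM in those of the aging libraries. In the 344 endothelial nuclei of the 3-month matrix it had 0 UMIs. The limit of 3 counts was 4.67 CPM there, and the exact interval ended at 5.74 CPM. The pericyte level was 62.2-fold the limit of 3 counts, a point value and not a lower bound. In the aging matrix the pericyte level was 27.6-fold [25.2–30.3] the endothelial level of 17.0 CPM. *Gucy1a2* reached 1201 and 588 CPM and then 1526, 815 and 1163 CPM in pericyte nuclei, and 3.78, 8.96, 27.2, 14.1 and 8.93 CPM in adipocyte nuclei. Its pericyte level was 176-fold [158–196] the adipocyte level in the 3-month and 67.2-fold [54.1–84.5] in the aging matrix. By library the ratio was 318, 65.6, 56.0, 58.0 and 130.2-fold, so it was much larger in the 3-month library with suffix 1 than in that with suffix 2. The 3-month library with suffix 2 was the lowest pericyte library for all 3 subunits.

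Between pericyte and endothelial nuclei, 5 of the 8 genes were at least 2-fold higher in pericyte nuclei of both matrices, where 10.4% of all genes tested were. They were the 3 cyclase subunits, *Prkg1* and *Pde5a*, and all 5 were at least 2-fold higher in 5 of 5 libraries, with *Gucy1a1* and *Gucy1b1* at 0 UMIs in endothelial nuclei of 3-month suffix 1. When nuclei with UMIs of other lists were left out, 23 pericyte and 27 endothelial nuclei remained in the 3-month matrix and the count was 2 of 8. Beside this, the 8 pericyte markers summed to 154 CPM in endothelial nuclei of the 3-month matrix and 426 CPM in those of the aging matrix, against 7701 and 8924 CPM in pericyte nuclei. The endothelial levels of the subunits in the aging matrix, 9.58 to 24.8 CPM, were in the range of those in macrophage nuclei (7.87 to 39.3 CPM, 1 to 5 UMIs each).

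Nuclei of at least 500 UMIs were thinned to 500 UMIs, which left out 30 pericyte nuclei of the aging matrix and 0 of the 3-month matrix. *Gucy1a2* then had a UMI in 29.8% and 43.7% of pericyte nuclei of the 3-month and aging matrices, *Gucy1a1* in 14.1% and 19.9%, and *Gucy1b1* in 12.2% and 14.9%. Unthinned and over all pericyte nuclei, these shares were 68.6% and 80.1%, 41.5% and 54.1%, and 41.5% and 44.8%. In thinned macrophage nuclei of the 3-month matrix the shares were 0.467%, 0 and 0, of 214 nuclei. Among 1615 pericyte nuclei of the aging matrix thinned to 1500 UMIs, 713 had a *Gucy1a1* UMI, 601 a *Gucy1b1* UMI and 293 both. *Gucy1b1* was found in 41.1% of nuclei with and in 34.1% of nuclei without *Gucy1a1*, a description with no test, as nuclei of a library share their source. The gap was smaller for *Gucy1b1* by *Gucy1a2* (38.2% and 34.2%) and for *Gucy1a2* by *Gucy1a1* (76.3% and 74.1%). In 658 smooth muscle nuclei thinned alike, these pairs in the same order had 25.4% and 18.8%, 25.2% and 19.9%, and 47.8% and 50.3%. Libraries were pooled for these shares.

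**Figure D3:**
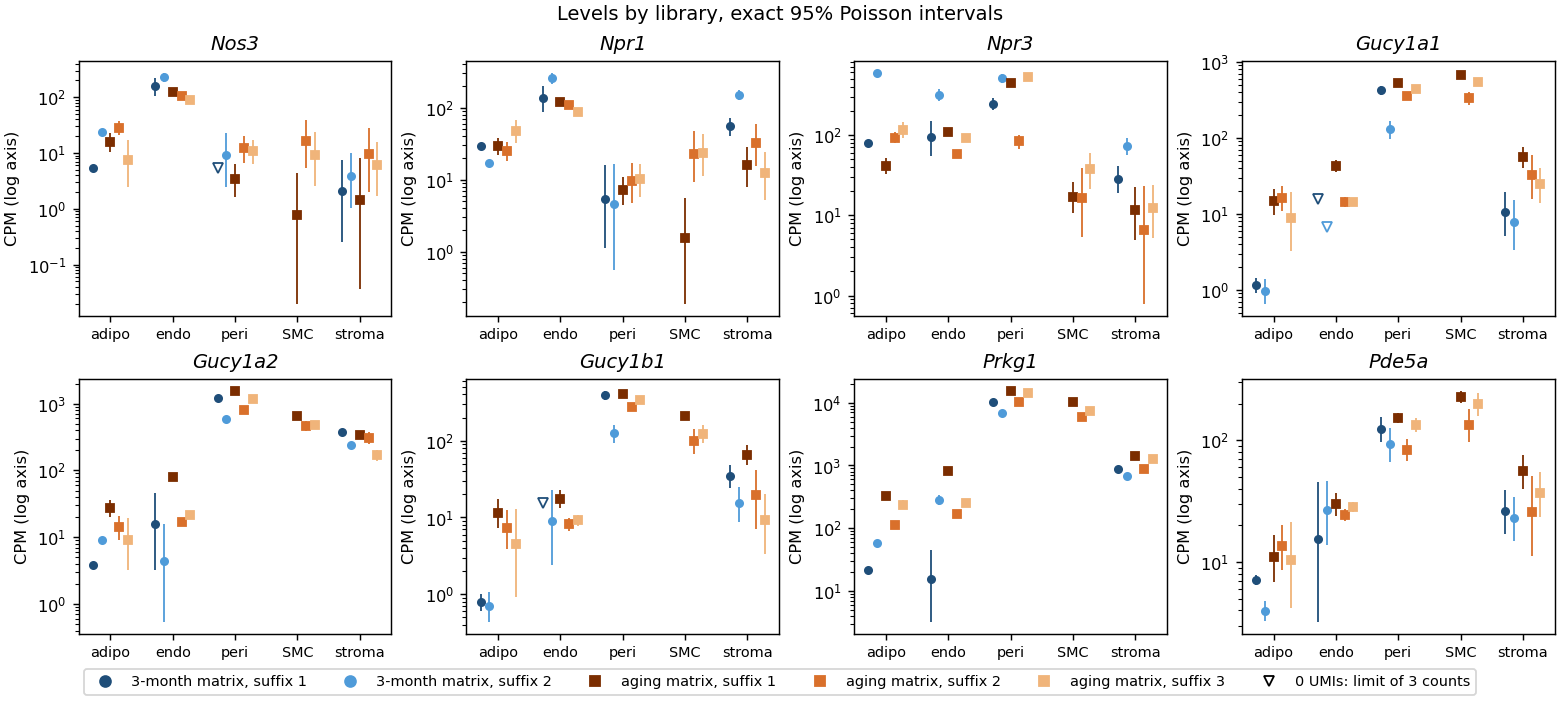
CPM of each gene in adipocyte, endothelial, pericyte, smooth muscle (SMC, aging matrix) and stromal nuclei on a log axis, with 1 point per library and bars for 95% Poisson intervals; circles are 3-month and squares aging libraries, and open triangles mark 0 UMIs at the limit of 3 counts. For the cyclase subunits, *Prkg1* and *Pde5a* each library's pericyte value lies above its adipocyte value, while *Npr3* overlaps between these classes.

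*Prkg1*, the cGMP-dependent kinase I, was highest in mural nuclei and found in nearly all of them. In pericyte nuclei its level was 10176 and 6804 CPM in the 3-month libraries and 15474, 10334 and 14501 CPM in the aging libraries, and in adipocyte nuclei 21.6, 59.3, 331, 111 and 238 CPM. No adipocyte value came near a pericyte value. The ratio was 267-fold [256–278] in the 3-month and 62.3-fold [58.5–66.4] in the aging matrix, and by library 470.1, 115, 46.8, 92.8 and 60.9-fold. After thinning to 500 UMIs, *Prkg1* had a UMI in 96.0% and 98.7% of pericyte nuclei and in 95.7% of smooth muscle nuclei. The share was 69.2% in Schwann nuclei of the aging matrix and 38.6% in skeletal muscle nuclei of the 3-month matrix. Stromal nuclei had 24.5% in the 3-month and 36.9% in the aging matrix, and macrophage nuclei 6.54% and 11.3%.

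Endothelial *Prkg1* spanned 52.4-fold between libraries. It rested on 3 UMIs, or 15.6 CPM, with suffix 1 of the 3-month matrix and was 282 CPM with suffix 2, while the aging libraries had 817, 170 and 255 CPM. The 3-month endothelial level was 6.22-fold [5.18–7.41] the adipocyte level over both libraries, but 0.720-fold without suffix 2 and 0.742-fold when only nuclei of 200 to 2000 UMIs were kept. Per *Gucy1a2* UMI, the aging libraries had 10.4, 10.2 and 11.8 *Prkg1* UMIs in endothelial nuclei, 10.1, 12.7 and 12.5 in pericyte nuclei, and 12.2, 7.92 and 26.7 in adipocyte nuclei, the last on 6 *Gucy1a2* UMIs. The part of pericyte RNA in the endothelial level was not tested.

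Outside the mural classes, *Prkg1* stood apart from the cyclase subunits in Schwann and skeletal muscle nuclei. Schwann nuclei of the aging matrix had 3148, 2904 and 3288 CPM, a spread of 1.13-fold over the libraries, and 2.47-fold [2.36–2.60] the stromal level. They held 64.4 [52.7–79.4] *Prkg1* UMIs per *Gucy1a2* UMI. Skeletal muscle nuclei of the 3-month matrix had 1471 CPM and 238 *Prkg1* UMIs per *Gucy1a2* UMI. *Gucy1a1*, *Gucy1a2* and *Gucy1b1* were at 1.12, 6.17 and 1.68 CPM in those muscle nuclei, on 2, 11 and 3 UMIs.

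*Pde5a*, the phosphodiesterase that sildenafil inhibits, was higher in pericyte than in adipocyte nuclei in 5 of 5 libraries. Pericyte nuclei had 124 and 93.0 CPM in the 3-month libraries and 153, 83.8 and 135 CPM in the aging libraries, and adipocyte nuclei 7.13, 3.96, 11.0, 13.5 and 10.4 CPM. No pericyte value was as low as any adipocyte value. The pericyte level was 17.7-fold [14.3–21.8] and 11.2-fold [8.46–15.2] the adipocyte level, and 17.4, 23.5, 13.9, 6.20 and 12.9-fold by library. Endothelial nuclei stood between, at 23.3 CPM on 15 UMIs in the 3-month and 27.0 CPM on 867 UMIs in the aging matrix, which was 3.75-fold [2.09–6.24] and 2.26-fold [1.71–3.05] the adipocyte level, and from 1.81-fold to 6.73-fold by library.

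Smooth muscle nuclei also carried the response genes. At least 2-fold higher in smooth muscle than in adipocyte nuclei of both matrices were 5 of the 8 genes, the same 5 as for pericytes, where 7.91% of all genes tested were, but the 3-month value rests on 11 nuclei. In those nuclei *Gucy1b1* had 1 UMI (32.4 CPM [0.821–181]) and *Pde5a* 3 UMIs (97.3 CPM [20.1–284]). The limit of 3 counts was 97.3 CPM there, so these 3-month calls are weak. The count was 3 without 3-month suffix 2, 3 with nuclei thinned to 500 UMIs, and 2 with nuclei of 200 to 2000 UMIs. Within the aging matrix, the 2 mural classes differed in which genes they carried. The gates told these classes apart by the higher of their marker lists, with no 2-fold margin between them. Smooth muscle nuclei had *Npr3* at 17.1, 16.4 and 37.2 CPM in the 3 libraries, below the 439, 82.9 and 525 CPM of pericyte nuclei. The pericyte level was 18.4-fold higher, or a smooth muscle ratio of 0.0545 [0.0393–0.0736], from 0.0388 to 0.198 by library.

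*Gucy1a2* was 643, 466 and 484 CPM in smooth muscle nuclei and *Gucy1b1* 209, 98.4 and 123 CPM, each below the pericyte value of the same library. Their ratios to the pericyte level were 0.455 [0.428–0.484] and 0.487 [0.433–0.545]. With *Npr3* these were the 3 of 8 genes at least 2-fold lower in smooth muscle than in pericyte nuclei of the aging matrix, where 17.1% of all genes tested were. In the 11 smooth muscle nuclei of the 3-month matrix *Gucy1a2* was instead above the pericyte level, at 1038 CPM on 32 UMIs against 928 CPM. With suffix 2 of that matrix its ratio was 1.77 [1.11–2.69]. *Prkg1* was lower in smooth muscle nuclei in 3 of 3 aging libraries without reaching 2-fold (0.633 [0.623–0.643]).

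*Gucy1a1* and *Pde5a* went the other way. *Gucy1a1* was 673, 334 and 542 CPM in smooth muscle nuclei, 1.26-fold [1.18–1.35] the pericyte level, with 2 of 3 libraries above 1 and suffix 2 at 0.936. *Pde5a* was 230, 134 and 200 CPM, 1.56-fold [1.38–1.76] the pericyte level, and above it in 3 of 3 libraries by 1.49-fold to 1.61-fold. 0 of 8 genes were at least 2-fold higher in smooth muscle than in pericyte nuclei of the aging matrix, where 8.99% of all genes tested were, and 0 of the 6 that could be tested were in both matrices, where 3.72% were. Smooth muscle and pericyte nuclei were alike in depth, with medians of 1921 and 1920 UMIs, and the pericyte markers summed to 2285 CPM in smooth muscle nuclei against 8924 CPM in pericyte nuclei.

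The mix of alpha subunits followed from these values. *Gucy1a1* made up 23.8% [21.4–26.3] of the UMIs of both alpha genes in pericyte nuclei of the 3-month matrix and 26.9% [26.0–27.8] in those of the aging matrix (exact binomial intervals). In smooth muscle nuclei of the aging matrix it made up 50.5% [48.5–52.5], and by library 51.1%, 41.8% and 52.8%. The smooth muscle share was above the pericyte share of 25.7%, 30.5% and 27.6% in each aging library. The 11 smooth muscle nuclei of the 3-month matrix did not show this, with a share of 27.3% [15.0–42.8] on 12 and 32 UMIs. Its interval overlapped that of pericyte nuclei in the 3-month matrix. In stromal nuclei the *Gucy1a1* share was 2.90% [1.73–4.54] in the 3-month and 12.7% [9.92–15.9] in the aging matrix. The genes differ in length, so a share of UMIs is not a share of molecules, and only its change between classes can be read.

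**Figure D4:**
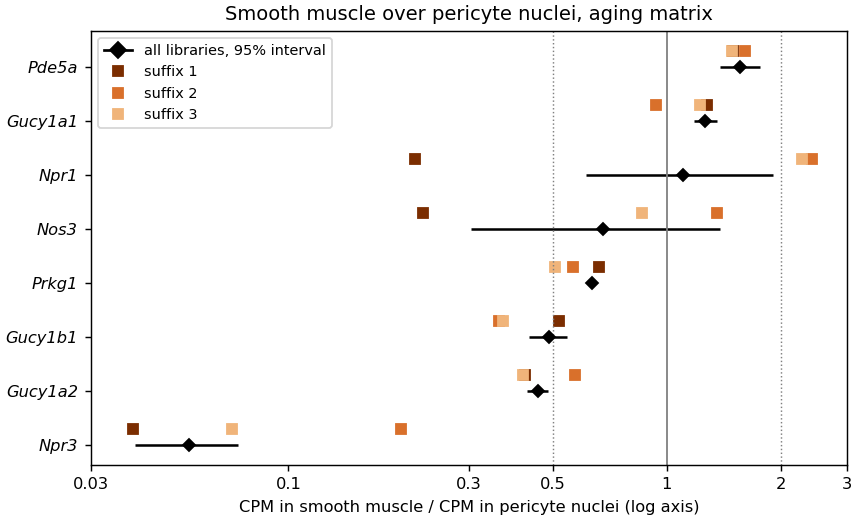
CPM in smooth muscle nuclei over CPM in pericyte nuclei of the aging matrix for each gene on a log axis, with diamonds and bars for all libraries and their 95% intervals and squares for the 3 libraries; dotted lines mark 2-fold. The diamonds of *Npr3*, *Gucy1a2* and *Gucy1b1* lie left of 0.5, *Pde5a* lies right of 1 in each library, and *Nos3* and *Npr1*, on 10 and 19 smooth muscle UMIs, scatter to both sides.

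Stromal nuclei carried a part of the response side. Against adipocyte nuclei 5 of the 8 genes were at least 2-fold higher in both matrices, where 15.9% of all genes tested were, and these were the response genes. The count was 3 without aging suffix 1 and 2 with thinned nuclei, where the 3-month ratio of *Pde5a* was 0.976. *Gucy1a2* led, at 377 and 238 CPM in the 3-month libraries and 344, 310 and 171 CPM in the aging libraries, which was 57.7-fold [51.3–64.9] and 14.2-fold [11.2–18.1] the adipocyte level, and 99.7, 26.6, 12.7, 22.0 and 19.1-fold by library. Pericyte nuclei exceeded the stromal level of *Gucy1a2* by 3.05-fold and 4.74-fold, but that of *Gucy1a1* by 31.9-fold and 12.0-fold and that of *Gucy1b1* by 11.1-fold and 10.2-fold. *Prkg1* was 882, 684, 1421, 891 and 1290 CPM in stromal nuclei, 2.56 and 4.71 UMIs per *Gucy1a2* UMI. *Npr3* was 4.39-fold and 6.76-fold lower in stromal than in adipocyte nuclei. Beside this, the pericyte markers summed to 356 CPM in stromal nuclei of the 3-month and 547 CPM in those of the aging matrix. *Gucy1a1* stood there at 9.09 and 39.1 CPM, on 18 and 65 UMIs. What mural RNA contributed to the stromal levels was not tested.

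Adipocyte nuclei were low for every response gene against pericyte nuclei. In the 3-month matrix, where they were deepest, *Gucy1a1* had 114, *Gucy1b1* 79, *Gucy1a2* 545 and *Pde5a* 642 UMIs in 15957 nuclei, or 1.10, 0.765, 5.27 and 6.21 CPM. The pericyte markers summed to 67.5 CPM in these nuclei. In the aging matrix the same genes stood at 14.5, 8.72, 19.0 and 11.9 CPM in adipocyte nuclei, beside pericyte markers of 296 CPM. *Prkg1* was 32.5 CPM in adipocyte nuclei of the 3-month and 227 CPM in those of the aging matrix, where endothelial nuclei had 272 CPM. What mural RNA contributed to these adipocyte levels was not tested. Low levels were not particular to adipocytes. In the 3-month matrix *Gucy1a1* had 0 UMIs in endothelial, macrophage and T lymphocyte nuclei, and *Pde5a* was 1.12 CPM in skeletal muscle nuclei.

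Within endothelial nuclei of the aging matrix, short lists of vessel markers set apart 176 arterial, 6214 capillary and 169 venous nuclei, while 11663 of the 18222 fell in no subset. *Prkg1* was 909.9 CPM [809.5–1019] in venous, 157 in capillary and 289 in arterial nuclei, so that venous nuclei had 5.79-fold [5.10–6.55] the capillary level. By library the venous level was 798, 767 and 1124 CPM and the capillary level 391, 106 and 173 CPM, higher in venous nuclei in 3 of 3. Venous nuclei held 99.3 *Prkg1* UMIs per *Gucy1a2* UMI, on 298 and 3 UMIs, against 9.04 in capillary and 10.25 in arterial nuclei.

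*Nos3* was 208 CPM in venous, 134 in arterial and 95.1 in capillary nuclei, a venous to capillary ratio of 2.18 [1.68–2.79] that was 1.22, 2.42 and 2.89 by library. The venous to arterial ratio was 0.479, 1.87 and 2.26 by library, so with suffix 1 the arterial level, on 7 UMIs, was the higher one. *Npr1* was 165 CPM in venous, 70.6 in arterial and 100.2 in capillary nuclei, a venous to capillary ratio of 1.65 [1.23–2.16]. *Npr3* ran opposite, with 81.0 CPM in capillary against 35.3 in arterial and 33.6 in venous nuclei, on 10 and 11 UMIs in the last 2. Its ratios to the capillary level were 0.436 [0.208–0.805] and 0.415 [0.206–0.746]. The 3-month matrix had 9 arterial and 7 venous nuclei, too few for this comparison.

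**Figure D5:**
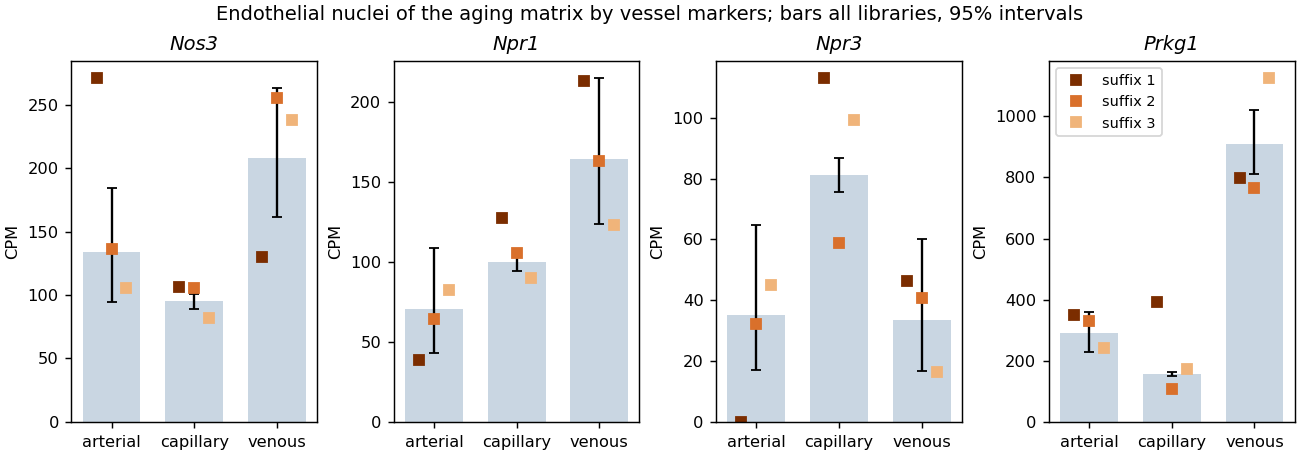
CPM of *Nos3*, *Npr1*, *Npr3* and *Prkg1* in arterial, capillary and venous endothelial nuclei of the aging matrix, with bars from 0 for all libraries, 95% Poisson intervals and squares for the 3 libraries. *Prkg1* is highest in venous nuclei in each library, and the *Npr3* bar is highest in capillary nuclei.

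Other genes of the pathway were taken from a list of 35, of which 34 were in the files. Of these, 10 had a highest class at least 2-fold above the next in both matrices and at least 50 UMIs in a class of either matrix, and for 6 of the 10 that class was the same in both. *Nos2*, *Prkg2* and *Hcn2* reached 50 UMIs in a class of 1 matrix only. On the side of nitric oxide supply, *Nostrin*, whose product binds endothelial nitric oxide synthase, was highest in pericyte and not in endothelial nuclei, at 513 and 463 CPM. *Nos2*, the inducible synthase, was highest in endothelial nuclei at 21.8 and 38.5 CPM, the first on 14 UMIs. *Nos1*, the neuronal synthase, was at 268 CPM in skeletal muscle nuclei of the 3-month matrix and at most 9.04 CPM, in pericyte nuclei, in the aging matrix, which held 0 skeletal muscle nuclei.

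Among enzymes that remove cGMP, *Pde2a*, a cGMP-stimulated phosphodiesterase, was highest in endothelial nuclei at 358 and 315 CPM. *Pde10a* was highest in pericyte nuclei at 3151 and 1675 CPM, and *Pde11a* in stromal nuclei at 802 and 402 CPM. Both hydrolyse cAMP and cGMP. Of kinases and targets, *Rgs2*, a regulator of G protein signaling, was highest in adipocyte nuclei at 160 and 213 CPM. *Prkg2*, the membrane-bound kinase II, was 19.2 CPM in pericyte nuclei of the 3-month and 124 CPM in smooth muscle nuclei of the aging matrix. *Kcnma1*, the BK potassium channel, was 2866 CPM in skeletal muscle nuclei of the 3-month and 376 CPM in smooth muscle nuclei of the aging matrix. *Hcn2*, a channel opened by cyclic nucleotides, was highest in adipocyte nuclei of the 3-month matrix at 4.64 CPM and in Schwann nuclei of the aging matrix at 21.4 CPM. *Nppb*, which encodes a ligand of *Npr1*, had 0 UMIs in every class.

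Each matrix had 7 classes of at least 50 nuclei, but not the same 7. Skeletal muscle and T lymphocyte nuclei were among them only in the 3-month matrix, and smooth muscle and Schwann nuclei only in the aging matrix. Across the classes of each matrix, Pearson r of log2(CPM + 1) was computed. The genes most like each member were those with the highest mean r over both matrices, among 11108 genes. These correlations describe class profiles that share libraries and depth, and carry no p. *Gucy1b1* was most like *Heyl*, a Notch target (r = 0.979), and *Gucy1a1* most like *Cacna1c*, an L-type calcium channel subunit (0.976), which was also second for *Gucy1b1* (0.969). *Gucy1a2* was most like *Arhgef17* (0.976), *Pde5a* like *Fam20a* (0.949) and *Prkg1* like *B130024G19Rik* (0.927). *Nos3* was most like *Zfp366* (0.950), with the endothelial gene *Egfl7* next (0.949), and *Npr1* like *Afdn*, a junction protein gene (0.929). *Npr3* had the weakest best match, *Herc1*, at 0.728 in the 3-month and 0.945 in the aging matrix.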

How the data were processed

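iBAT nuclei were profiled with the 10x Genomics 3′ v3.1 kit. The submitters' processing notes name mm10, Cell Ranger 6.1.2 and Seurat 4.1.0. The files the authors deposited hold raw UMI counts per gene and barcode, 1 matrix of 2 libraries and 1 of 3. Nuclei with at least 200 UMIs and 100 genes were kept; the stated upper limits of 2000 UMIs and 3000 genes were an alternative, since they leave 2763 of 20307 and 18756 of 27842 nuclei. A nucleus entered a class with at least 3 UMIs from at least 2 genes of its list and at least 2000 CPM of the list. The list also had to be the highest and 2-fold above every list of another lineage. Within a lineage (pericyte and smooth muscle, or endothelial and lymphatic endothelial) the higher list decided, with no 2-fold margin. Counts were summed per class with Python 3.11.15, pandas 2.3.3 and scipy 1.17.1, and the scripts were tested on simulated data. A gene was tested in a comparison with at least 20 UMIs over both classes in each matrix and called past 2-fold in both. Pathway genes and similar genes were named by the rules given with them. The 8 genes and the lists were chosen with earlier results of these data known, and the scoring rule of the gates after the marker distributions were seen. Seurat clusters, genotype and age comparisons, and per-length values were not used here.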

Additional observations from a re-analysis of the deposited data

How the results depend on the processing

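The results were recomputed with the study's full filter (upper limits of 2000 UMIs and 3000 genes as well), stricter and looser gates, nuclei thinned to 500 UMIs, nuclei with at least 2 UMIs of another list left out, libraries weighted equally, each library left out in turn, and, chosen after seeing the data, barcodes shared by libraries left out. Of 70 recomputed counts of genes, 63 stayed within 1.5 times the count reported, and 7 moved. With the full filter, 2 genes were at least 2-fold higher in smooth muscle than in adipocyte nuclei and 2 in stromal than in adipocyte nuclei, with 3 smooth muscle and 45 stromal nuclei left in the 3-month matrix. With thinned nuclei these counts were 3 and 2. Without nuclei holding UMIs of other lists, 2 genes were at least 2-fold higher in pericyte than in endothelial nuclei, with 23 and 27 such nuclei left in the 3-month matrix, and the smooth muscle comparisons gave no value. Leaving out a library gave 5 to 6 genes for pericyte over adipocyte, 3 to 5 for smooth muscle over adipocyte (3 without 3-month suffix 2), 3 to 3 for endothelial over adipocyte, 5 to 6 for pericyte over endothelial, 0 to 0 for smooth muscle over pericyte and 3 to 5 for stromal over adipocyte (3 without aging suffix 1). Of 1017 recomputed ratios of single genes, 777 moved by less than their counting interval, 237 moved by more and 3 reversed. *Prkg1* in endothelial over adipocyte nuclei of the 3-month matrix, a log2 ratio of 2.64, was -0.43 with the full filter and -0.47 without suffix 2. *Pde5a* in stromal over adipocyte nuclei of the 3-month matrix, a log2 ratio of 1.99, was -0.0354 with thinned nuclei. The causes were not tested. No paired analysis was possible because no condition has more than 1 library and no suffix is tied to a condition. Depth limits what can be read from values on few UMIs, such as the 3-month endothelial levels of the cyclase subunits, which rest on 0 to 5 UMIs.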
